A study of Sus scrofa with 11 samples.

Results

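Mitochondrial supplementation was examined by comparing blastocysts from BCB- pig oocytes that received isolated mitochondria at fertilisation (mICSI BCB-) with blastocysts from BCB- oocytes that did not (ICSI BCB-). The 7 arrays compared, 4 mICSI BCB- and 3 ICSI BCB-, were chosen by the title, source and staining labels among the 11 arrays of the series. A further 4 arrays, of ICSI BCB+ blastocysts, entered the normalisation, the filter on low signals and the estimate of the spread between blastocysts, and serve as a level for reference. Each array held the amplified RNA of 1 blastocyst, with no pooling. All oocytes were stained with brilliant cresyl blue (BCB) for 60 minutes as cumulus complexes and matured in vitro for 44 h. Those at metaphase II were injected with a sperm alone (ICSI) or with a sperm and mitochondria isolated from BCB+ oocytes of the same pair of ovaries (mICSI), and blastocysts were collected on day 7 of culture. The free-text description of the mICSI arrays names BCB+ oocytes, whereas their titles, sources and staining labels give negative staining, which was used here. Whether the blastocysts came from separate ovaries, injections or culture drops is not stated, so p-values measure only the spread between these blastocysts. Transferred mitochondria were not measured on the arrays, and no group received a mock isolate on these arrays, so the mitochondria and the rest of the injected isolate cannot be told apart.

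BCB is reduced to a colourless form by glucose-6-phosphate dehydrogenase, whose activity declines as the oocyte finishes its growth, so that oocytes that stay blue (BCB+) are taken as fully grown and those that lose the colour (BCB-) as less competent. Mitochondria are inherited from the oocyte and carry their own small genome, whose copy number is built up as the oocyte grows. In the embryo these copies are passed on to the dividing cells. The blastocyst is the stage at which the embryo, having turned on its own genome, separates into an inner cell mass and an outer trophectoderm. The array files identify probes only by an ID, without gene name or sequence, so the results are given by probe. The labelled tissue could not be checked against marker genes.

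The arrays lay on 3 slides, and the groups were not spread evenly over them. mICSI BCB- replicates 1 and 2 were on slide 1 without an ICSI BCB- array, ICSI BCB- replicates 1 and 2 were on slide 2 without an mICSI BCB- array, and slide 3 held mICSI BCB- replicates 3 and 4 with ICSI BCB- replicate 3. A direct comparison within a slide therefore rested on a single ICSI BCB- blastocyst.

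Fewer probes were detected in the mICSI BCB- blastocysts on average, but the groups overlapped. A probe was counted as detected where Agilent's software marked its spot as well above background. Among the 43753 probes examined, 67.5%, 62.9%, 69.8% and 59.4% were detected on mICSI BCB- arrays 1 to 4. The ICSI BCB- arrays 1 to 3 had 72.2%, 69.2% and 71.4%. The mean was thus 64.9% ± 4.65 (SD, n = 4) with supplementation and 70.9% ± 1.54 (SD, n = 3) without it. mICSI BCB- replicate 3 lay within the range of the unsupplemented blastocysts, and replicates 2 and 4 lay furthest below it. The difference of -6.02 percentage points was reached or exceeded in 5 of the 35 ways of dividing the 7 blastocysts into 4 and 3 (two-sided exact permutation test, p = 0.143), where the smallest p that this design allows is 0.0286. On slide 3 the ICSI BCB- blastocyst, at 71.4%, lay above both mICSI BCB- blastocysts, by little for replicate 3 and by much for replicate 4. The 4 ICSI BCB+ arrays, from 67.9% to 70.5%, lay above mICSI BCB- replicates 1, 2 and 4.

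Signal strength divided the mICSI BCB- blastocysts in the same way. The 75th percentile of the processed signal, an intensity in scanner units, was 500, 322, 572 and 243 on mICSI BCB- arrays 1 to 4 and 1138, 879 and 471 on ICSI BCB- arrays 1 to 3. mICSI BCB- replicates 1 and 3 were brighter than ICSI BCB- replicate 3, and replicates 2 and 4 were the dimmest of the 7 arrays. The log2 of this percentile was lower by 1.01 on average in the mICSI BCB- group, which is written as a difference of -1.01 (two-sided exact permutation test, p = 0.143). Spike-in RNA, an artificial RNA added to each blastocyst before extraction, allowed the signal of the embryo to be read against a fixed reference. The median log2 signal of the embryo's probes minus the mean log2 signal of the spike-in was -6.73, -7.99, -6.83 and -8.52 in mICSI BCB- blastocysts 1 to 4. It was -5.94, -6.58 and -6.98 in ICSI BCB- blastocysts 1 to 3. The lowest ICSI BCB- value fell below the mICSI BCB- values of replicates 1 and 3, so the groups overlapped here too. The difference in means was -1.02 on the log2 scale (two-sided exact permutation test, p = 0.20), while the mean log2 spike-in signal itself differed by 0.04 (two-sided exact permutation test, p = 0.857). The ICSI BCB+ blastocysts, at -8.32 to -7.29 (mean -7.75), lay below every ICSI BCB- blastocyst, and the mICSI BCB- mean was -7.52. The mean 75th percentile was 486 for ICSI BCB+, 409 for mICSI BCB- and 829 for ICSI BCB- arrays. On both measures the unsupplemented group had the highest mean of the 3. The paper gives a set amount of labelled, amplified RNA for each array. Cell number, RNA per cell, amplification and labelling cannot be told apart in such values.

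**Figure D1:**
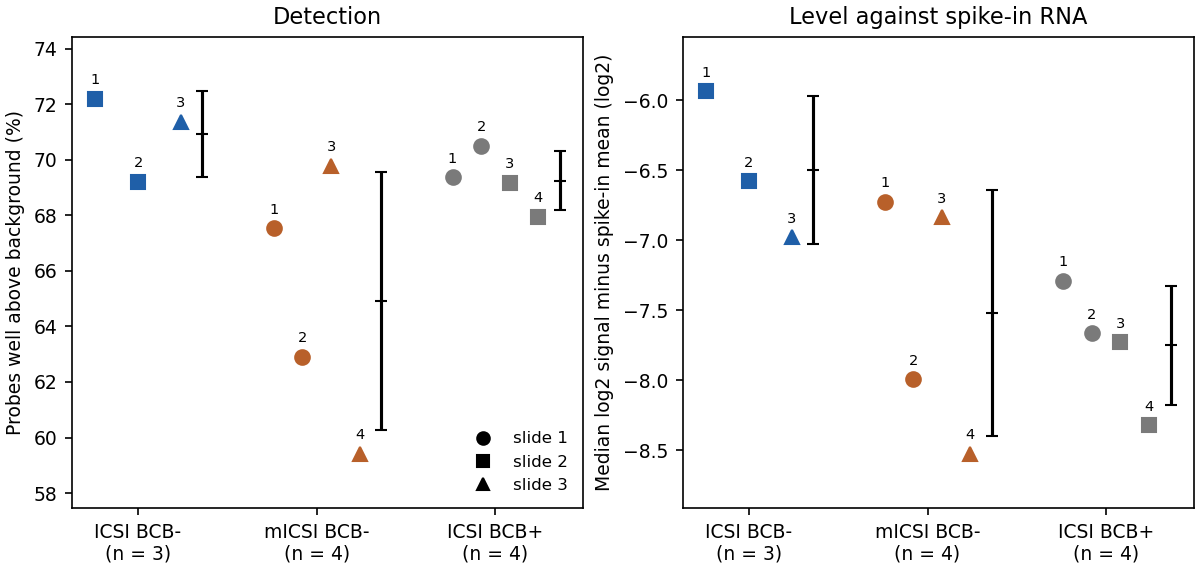
Left, the percentage of 43753 probes well above background on each array. Right, the median log2 signal of the embryo's probes minus the mean log2 spike-in signal. Each point is 1 blastocyst, numbered by replicate, the shape gives the slide, and the bar is the mean ± SD. mICSI BCB- replicates 2 and 4 lie below all ICSI BCB- blastocysts in both panels, while replicates 1 and 3 lie among or near them.

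Detection was lost more often than it was gained with supplementation. All 7 arrays detected 22917 probes (52.4%), none detected 7626 (17.4%), and 13210 (30.2%) were detected on some. Of the last, 9932 were detected on a larger share of the ICSI BCB- arrays and 3278 on a larger share of the mICSI BCB- arrays. At the extreme, 157 probes were detected in all 3 ICSI BCB- and no mICSI BCB- blastocyst (lost), and 7 in all 4 mICSI BCB- and no ICSI BCB- blastocyst (gained). The groups are of unequal size, and being detected on all of 4 arrays is a stricter condition than on all of 3. Lower detection on mICSI BCB- replicates 2 and 4 moved with this difference. Without these replicates, a choice made after their values were seen, 301 probes were lost and 114 gained, both out of fewer arrays.

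When the same number of probes was counted as detected on each array, lost and gained probes were nearly equal in number. For this, the 25996 brightest probes of each array were taken, 59.4% of all, which is the number detected on the dimmest array. By this count 52 probes were lost and 46 gained, and 6570 probes were detected on a larger share of ICSI BCB- arrays against 6491 on a larger share of mICSI BCB- arrays. Of the 157 probes lost by the flag, 15 were also lost by rank, and of the 7 gained by the flag, 3 were also gained by rank. Equal numbers per array make the mean share of detected probes the same in both groups. A near balance of lost and gained probes was thus largely built into this count, so it does not bear on the excess found by the flag.

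**Figure D2:**
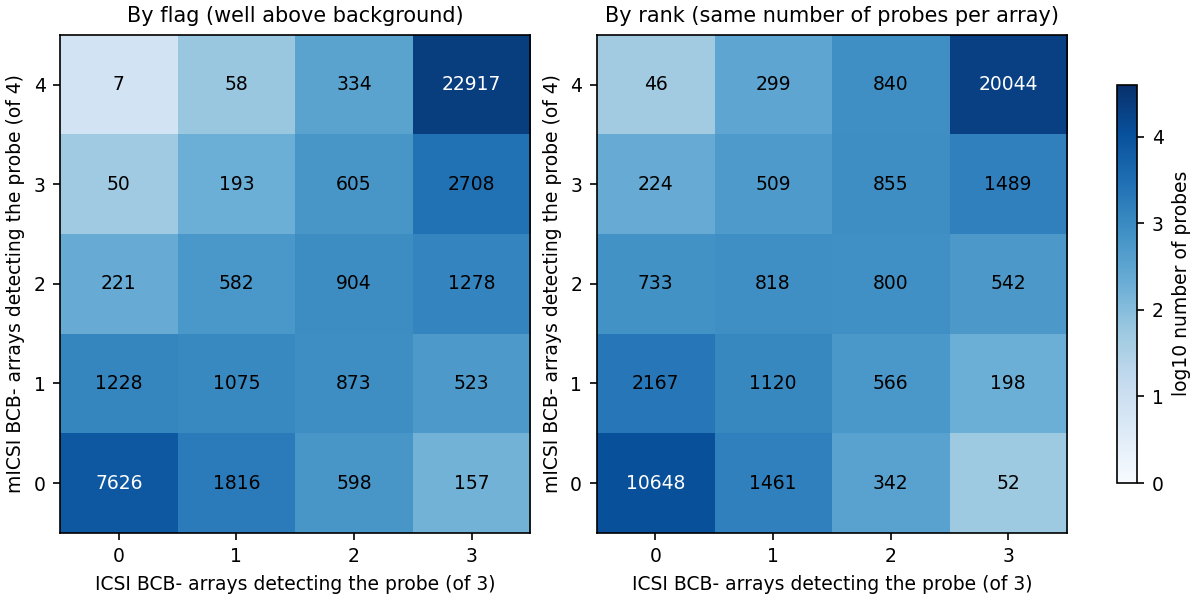
Number of probes by how many of the 3 ICSI BCB- arrays (x axis) and of the 4 mICSI BCB- arrays (y axis) detected them, with detection by the software's flag on the left and by rank on the right. The colour is the log10 of the number. The lost probes (bottom right corner) number 157 by flag and 52 by rank, and the gained probes (top left corner) number 7 and 46.

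Most of the probes that were lost were dim ones. Their median log2 signal in the ICSI BCB- blastocysts was 5.02, while the lowest normalised log2 signal that counted as well above background ranged from 4.28 to 5.28 over the mICSI BCB- arrays. Set against that limit, 41 of the 157 were at least 2-fold lower in mICSI BCB- blastocysts and 7 at least 5-fold lower, with a median bound of 1.18-fold. The 7 gained probes were brighter, with a median log2 signal of 6.56 in mICSI BCB- blastocysts and a median bound of 5.24-fold, up to at least 26.8-fold. On the ICSI BCB- arrays the limit was lower, from 4.06 to 4.33. Gained probes thus had to clear a mostly higher limit, and their bounds were set against a lower one. The ICSI BCB+ blastocysts were mixed for the lost probes, detecting 18 of them on no array, 37 on 1, 41 on 2, 35 on 3 and 26 on all 4. Of the gained probes, 3 were detected on 1 ICSI BCB+ array, 3 on 2 and 1 on all 4. Neither set was thus simply present or absent in blastocysts from competent oocytes. Loss in a single mICSI BCB- blastocyst was commonest in replicate 4, in which 2178 probes were missing that the other 3 mICSI BCB- blastocysts all showed. The corresponding numbers were 332, 838 and 208 for replicates 1, 2 and 3. Replicate 3 had the most probes detected in no other mICSI BCB- blastocyst, 1594, and replicate 2 the fewest, 538.

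Few probes separated the groups beyond the spread between blastocysts. After quantile normalisation, which gives all arrays the same distribution of signals, 33149 probes passed a filter on low signals and were tested with limma. The median log2 fold change (mICSI BCB- minus ICSI BCB-) was 0.09, and 82.2% of the probes lay within 2-fold. This normalisation holds the median near 0, so it cannot show whether the typical probe changed. With scaling by the spike-in RNA instead, the median was -0.88. At a false discovery rate of 0.05 (Benjamini-Hochberg adjustment over all probes tested), limma called 2 probes, or 0.00603% of those tested, both lower in mICSI BCB- blastocysts. Both passed the filter only through the 3 ICSI BCB- arrays, in which they were high, and were detected on no other array. Among the 22917 probes detected on all 7 arrays the count was 0, with 1604 at an unadjusted limma p under 0.05. Single arrays moved the count of 2, to 50 without ICSI BCB- replicate 3 and to 0 without ICSI BCB- replicate 2. Without ICSI BCB- replicate 2, 1214 probes had an unadjusted limma p under 0.05. An unadjusted limma p under 0.05 was found for 2052 probes, or 6.19%. With an unadjusted p under 0.01 and a fold change over 2, 332 probes (1.00%) were called, of which 136 (0.410%) were higher and 196 (0.591%) lower in mICSI BCB- blastocysts. Without ICSI BCB- replicate 3 this count was 782. With all arrays, 359 of the 33149 probes tested had an unadjusted limma p under 0.01, whatever their fold change. This is near the share that such a threshold passes where no probe differs. Chance alone could thus give a set of about the size of the 332 called, and the direction and size of their changes are described with that limit.

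The probes called lower outnumbered those called higher and had slightly larger fold changes. Of the 332, 41.0% were higher (95% Wilson interval 35.8% to 46.3%, which takes probes as independent). Of all probes tested, 55.9% lay higher in mICSI BCB- blastocysts, but most probes differed by less than 2-fold. Over 2-fold, 2255 of all probes tested were higher and 3639 lower. The excess of lower probes was thus not particular to the called ones. The median log2 fold change was 1.90 for the probes called higher and -2.15 for those called lower. A change over 5-fold was found for 45 higher and 87 lower probes, and over 10-fold for 22 and 43. In 24 of the higher and 38 of the lower probes, no array of the dimmer group detected the probe, so the size of those changes is set by the signal given to dim spots. Among the 22917 probes detected on all 7 arrays, 81 were called higher and 104 lower, or 43.8% higher. The split moved with the scaling, as did that of all probes. With scaling of each array to its 75th percentile, 52.0% of the called probes and 60.3% of all probes were higher. With scaling by the spike-in RNA, which moved the median log2 fold change of all probes to -0.88, 1.60% of the called and 7.31% of all probes were higher. The spike-in scaling shifted all probes down, so calls over 2-fold were bound to be mostly lower there. The shares of all probes count changes of any size and are not a like measure for the called probes.

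The number of probes whose groups did not overlap at all, every mICSI BCB- blastocyst lying on one side of every ICSI BCB- blastocyst, was 2207, or 6.66% of those tested. In these, 1339 probes (4.04%) were higher and 868 (2.62%) lower in mICSI BCB- blastocysts, the opposite balance to that of the called probes. For a probe without any difference, each direction turns up in 1 of the 35 divisions of the 7 blastocysts, a share of 0.0286. The higher share lay above that level and the lower share below it, and neither distance was tested. Separation alone thus does not mark a probe as changed. The shifts without overlap towards higher signal were small, with a median log2 fold change of 0.76, and those towards lower signal larger, at -1.36. Of the 1339, 436 differed over 2-fold, and of the 868, 595. With the spike-in scaling, 35 higher and 3380 lower probes had no overlap. Of the 332 called probes, 290 had no overlap, 116 higher and 174 lower. In the remaining 42 at least 1 blastocyst of one group lay within the range of the other.

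The called probes were spread over all levels of signal in shares near that over all probes. When the probes tested were divided into 4 classes of equal size by mean signal, 106 of the dimmest (1.28%) were called, followed by 75 (0.905%), 76 (0.917%) and 75 (0.905%) in the brighter classes. Among probes without overlap, those higher in mICSI BCB- blastocysts prevailed in the 2 dimmest classes, with 389 against 193 and 402 against 177. The balance was 304 against 209 in the next and turned in the brightest class, with 244 higher and 289 lower. The difference between the classes was not tested.

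**Figure D3:**
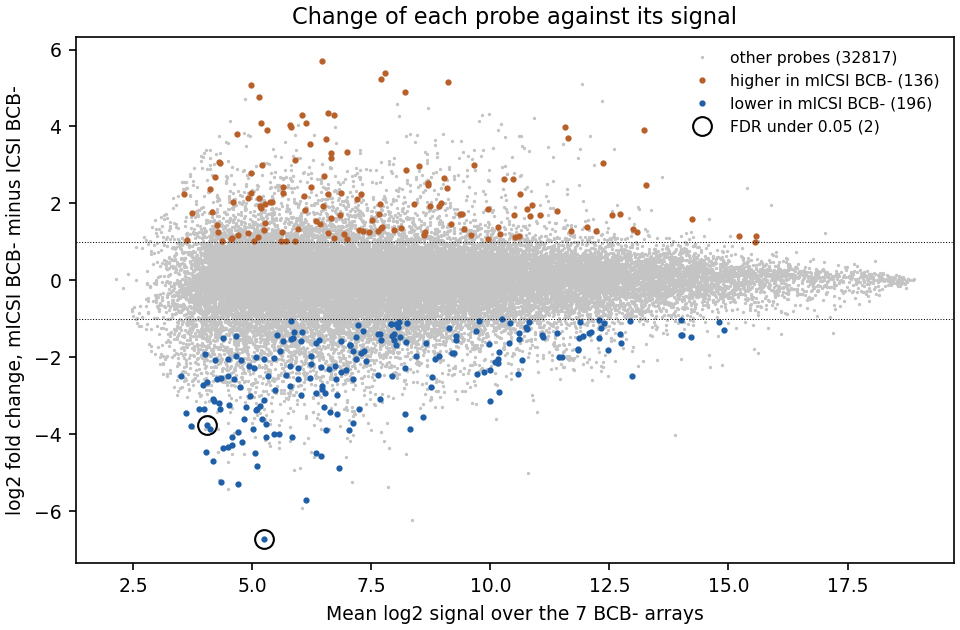
log2 fold change of mICSI BCB- minus ICSI BCB- blastocysts (y axis) against the mean log2 signal over the 7 arrays (x axis) for 33149 probes. Coloured points had a limma p under 0.01 and a fold change over 2 (136 higher, 196 lower), circles mark the 2 probes at a false discovery rate of 0.05, and dotted lines mark 2-fold. The widest scatter of fold changes lies among dim probes.

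Of the individual probes, 4 are named, the 2 with the lowest p in each direction among probes without overlap. The clearest change was in EMPV1_40508, which was detected in the 3 unsupplemented blastocysts and in no other. Its log2 signal was 9.12, 9.93 and 8.23 in ICSI BCB- blastocysts 1 to 3, well above background in each. In mICSI BCB- blastocysts 1 to 4 it was 2.27, 2.31, 2.28 and 2.61, not well above background in any. The mICSI BCB- signals give only a bound. Against the lowest signal well above background on the mICSI BCB- arrays, EMPV1_40508 was at least 20.2-fold lower with supplementation (limma adjusted p = 0.000118). This bound is for the processed signal, and with normexp background correction, which adds an offset of 50 to every signal, the fitted log2 fold change was -3.11. The ICSI BCB+ blastocysts, at 2.19 to 2.26, did not show it either. The probe passed the filter only through the 3 ICSI BCB- arrays, and leaving out any of them removes it from the test.

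EMPV1_38559 had the same distribution over the blastocysts at a lower signal. Its log2 signal was 6.57, 6.86 and 5.17 in ICSI BCB- blastocysts 1 to 3, all well above background. In mICSI BCB- blastocysts 1 to 4 it was 2.50, 2.72, 2.19 and 2.29, and none was well above background. The groups did not overlap, and ICSI BCB- replicate 3, the array that shared a slide with mICSI BCB- arrays, was again the lowest of its group. The level was at least 2.72-fold lower with supplementation (limma adjusted p = 0.0446), and with normexp the fitted log2 fold change was -1.05. This probe, too, passed the filter only through the 3 ICSI BCB- arrays in which it was high. The ICSI BCB+ blastocysts ranged from 2.18 to 2.84 and none was well above background. This call was fragile, since the adjusted p of EMPV1_38559 was over 0.05 in 19 of 22 other settings, with values over all 22 from 0.0301 to 1.

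EMPV1_09340 was higher with supplementation. Its log2 signal was 8.80, 7.83, 7.90 and 8.46 in mICSI BCB- blastocysts 1 to 4 and 5.91, 5.95 and 6.13 in ICSI BCB- blastocysts 1 to 3, all well above background. The lowest mICSI BCB- value lay 1.70 above the highest ICSI BCB- value. The log2 fold change was 2.25 (standard error 0.29), but the limma adjusted p of 0.117 did not pass 0.05. The ICSI BCB+ blastocysts, at 6.23 to 6.59, lay between the groups and close to the unsupplemented one.

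EMPV1_38133 was also higher, by 1.73 on the log2 scale with a standard error of 0.23, and its limma adjusted p of 0.117 did not pass 0.05 either. Its log2 signal was 10.31, 10.004, 9.90 and 10.36 in mICSI BCB- blastocysts 1 to 4 and 8.51, 8.53 and 8.22 in ICSI BCB- blastocysts 1 to 3. The normalised values were 1.37 apart at their nearest, whereas the processed signals before normalisation, 550 to 1138 for mICSI BCB- and 260 to 755 for ICSI BCB-, overlapped. For EMPV1_38133 the ICSI BCB+ blastocysts, at 9.54 to 9.78, lay nearer to the supplemented group. EMPV1_09340 and EMPV1_38133 thus placed the ICSI BCB+ level at different ends of the interval between the BCB- groups. With spike-in scaling the log2 fold change was 1.23 for EMPV1_09340 and 0.62 for EMPV1_38133.

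**Figure D4:**
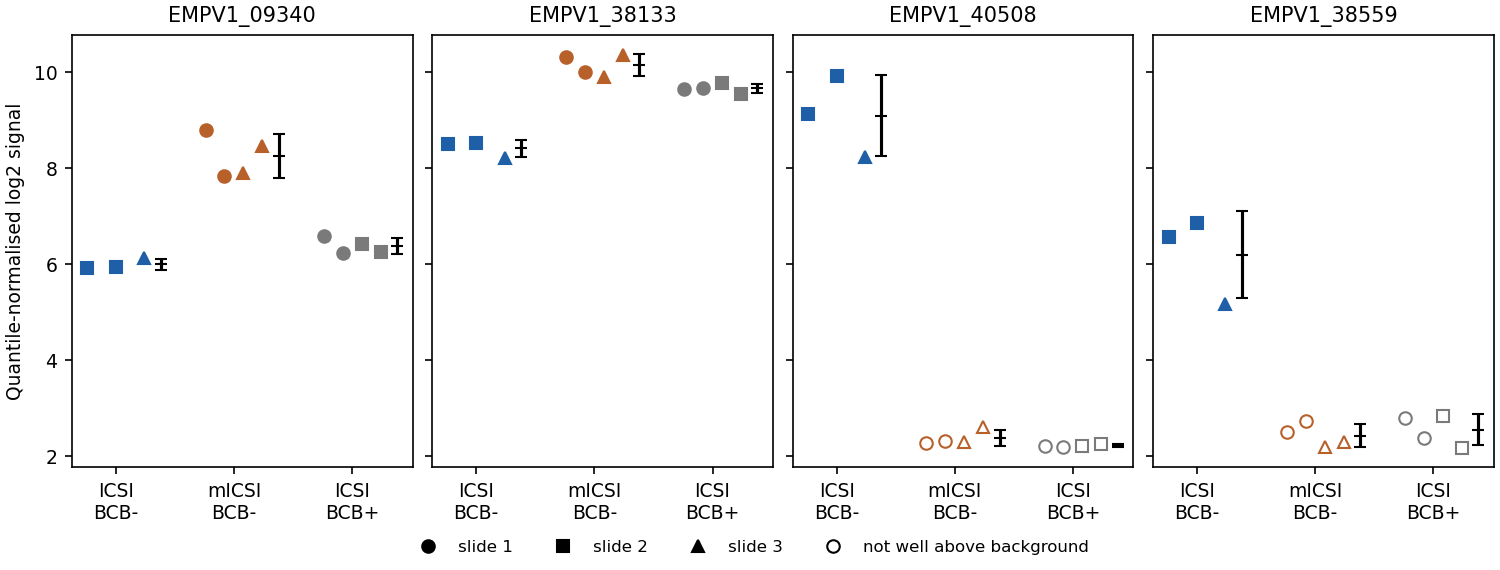
Quantile-normalised log2 signal of the 4 named probes in each blastocyst, by group, with the mean ± SD as a bar. Open symbols were not well above background, and the shape gives the slide. The 2 probes on the left are higher in all 4 mICSI BCB- blastocysts, and the 2 on the right are well above background only in the 3 ICSI BCB- blastocysts.

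The comparison was then made separately in the blastocysts of slide 3 and in those of slides 1 and 2, a division added after values had been seen. mICSI BCB- minus ICSI BCB- differences were taken between replicates 1 and 2 of each group, which lay on slides 1 and 2, and between mICSI BCB- replicates 3 and 4 and ICSI BCB- replicate 3, all on slide 3. The sets share no blastocyst. Across the 33149 probes the differences had a Pearson r of 0.0174 and a Spearman rho of 0.0109, over probes that are not independent of one another. The differences pointed the same way for 52.3% of all probes. Among the 5894 probes over 2-fold apart without overlap between the replicates of slides 1 and 2, 2952 (50.1%) went the same way on slide 3. Of these 5894, 1242 were over 2-fold in the same direction on slide 3 and 1276 over 2-fold in the opposite direction. Restriction to probes detected on all 7 arrays left 3434, of which 50.6% went the same way. As a whole, a difference in one set of blastocysts thus gave nearly equal numbers in both directions in the other. The slide 3 differences rested on 1 ICSI BCB- array, and the first set joined the supplementation to the slide.

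The named probes were chosen on all these arrays together. EMPV1_09340 differed by 2.05 on the log2 scale on slide 3 and by 2.38 between slides 1 and 2, and EMPV1_38133 by 1.92 and 1.64. For EMPV1_38559 no size can be given on slide 3, where its log2 signal of 5.17 in ICSI BCB- replicate 3 lay below the lowest signal that counted as well above background on mICSI BCB- replicate 4, 5.28. These values describe selected probes, with no test.

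The spread between blastocysts of a group overlapped that between the groups. The pooled SD of the log2 signal over all probes tested was 1.1 among mICSI BCB- and 1.03 among ICSI BCB- blastocysts, and 1.13 among ICSI BCB+ blastocysts. The log2 ratio of mICSI BCB- over ICSI BCB- was 0.10, and 31 of the 35 divisions of the blastocysts gave one as far from 0 (two-sided exact permutation test, p = 0.886). The median SD of a probe was 0.65 with and 0.53 without supplementation, and the SD was larger in the mICSI BCB- group for 58.1% of probes. Replicate 4 decided this direction. Without it the pooled SD of the mICSI BCB- blastocysts was 0.98, the median SD 0.49 and the log2 ratio -0.07 (two-sided exact permutation test, p = 0.50).

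Replicate 4 stood furthest from the other mICSI BCB- blastocysts. It had 2623 probes over 2-fold above every other mICSI BCB- blastocyst and 3233 over 2-fold below. Replicates 1, 2 and 3 had 1525, 1198 and 1734 above, and 929, 1253 and 1096 below. Replicate 4 also had the lowest share of detected probes and the lowest signal against the spike-in RNA, and the part of these in its distance from the others was not tested.

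For a pair of blastocysts, the spread can be expressed as the SD between them, pooled over all probes. Pairs within the ICSI BCB- group had values from 0.97 to 1.06, and pairs within the mICSI BCB- group from 0.92 to 1.25. Pairs made of 1 blastocyst of each group had values from 0.94 to 1.30, with a mean of 1.08. All mICSI BCB- pairs with replicate 4 were at 1.16 or above, and those without it at 1.01 or below. Without replicate 4, pairs between the groups ran up to 1.11, with a mean of 1.02, beside means of 1.02 within the ICSI BCB- and 0.98 within the mICSI BCB- group. The nearest blastocyst was of the same group for 6 of the 7. The exception was ICSI BCB- replicate 3, which was nearest to mICSI BCB- replicate 1 (0.94), an array on another slide. mICSI BCB- replicate 2 and ICSI BCB- replicates 1 and 2 had their nearest blastocyst on their own slide. Those slides held no array of the other BCB- group.

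**Figure D5:**
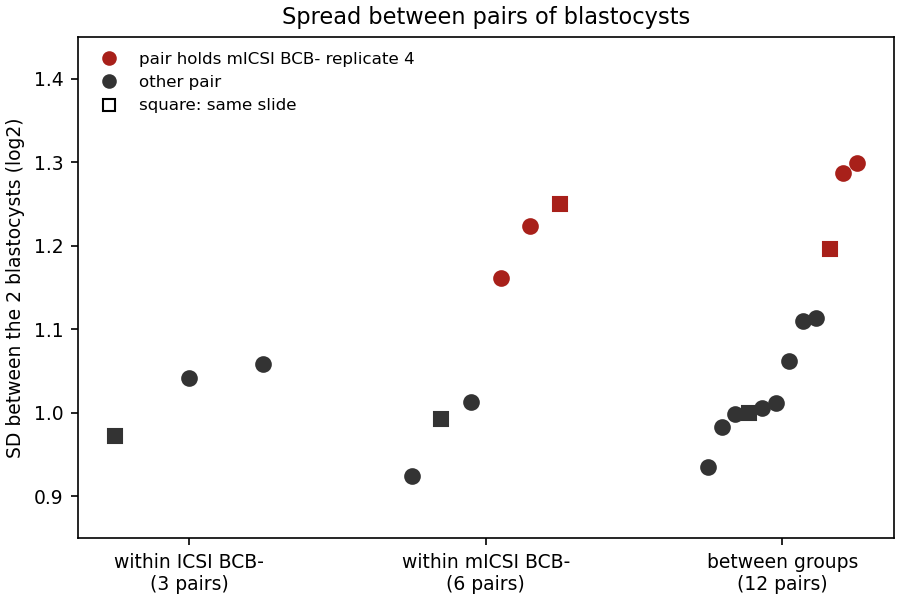
SD of the log2 signal between the 2 blastocysts of each pair, pooled over 33149 probes (y axis), for pairs within and between the groups (x axis). Red points hold mICSI BCB- replicate 4 and squares are pairs on the same slide. Pairs within and between the groups overlap, and all pairs with mICSI BCB- replicate 4 lie at 1.16 or above.

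The spread fell with signal in both groups. From the dimmest to the brightest of the same 4 classes of probes, the pooled SD was 1.27, 1.17, 1.12 and 0.79 among mICSI BCB- blastocysts, and 1.28, 1.07, 0.97 and 0.71 among ICSI BCB- blastocysts. Without replicate 4 the mICSI BCB- values were 1.21, 1.03, 0.92 and 0.67, below those of the ICSI BCB- group in each class. The spike-in RNA, which was the same in every blastocyst, had a pooled SD of 0.28 over the mICSI BCB- and 0.50 over the ICSI BCB- arrays across 8 sequences. Single spike-in sequences ranged from 0.05 to 0.48 over the mICSI BCB- arrays and from 0.13 to 1.03 over the ICSI BCB- arrays. Amplification of the small amount of RNA in a blastocyst lies within both measures, and biological and technical variation were not separated by a repeated array of the same blastocyst.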

How the data were processed

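RNA of single blastocysts was amplified, labelled with Cy3 and hybridised to 1-colour porcine Agilent arrays. The authors deposited the Feature Extraction (version 11.0.1.1) output of each array. Its processed signal is an intensity after background subtraction, with no normalisation between arrays, and its deposited flags are a score of 0 or 1 per spot. Of 43795 non-control probes, 42 marked as outliers on some array were removed, and no spot was saturated. Signals were quantile normalised over 11 arrays, floored at 1 and log2 transformed, which removes differences in total RNA. Probes not below the 20th percentile of an array and well above background on 3 or more arrays were tested with limma (version 3.58.1, R 4.3.3), with a mean per group and Benjamini-Hochberg adjustment. The number of arrays limits the precision. Exact permutation tests used all 35 divisions of the 7 BCB- arrays. The fold change bound set the brighter group's mean against the dimmer group's mean of the detection limit (per array, the lowest signal marked well above background), or of the probe's own signal where higher. Spike-in values used 8 sequences.

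The probes, tests and divisions were chosen with earlier results of these data known. Since the tables used here do not pair probe IDs with genes, gene lists were not analysed here, and the naming rule was held to the 2 probes with the lowest p in each direction among those without overlap. Alternatives covered scaling, normexp background correction (on the median spot signal), filters, a floor of 10, slide or replicate number as a block, the methods' t-test, the definition of detection and leaving out each array. Scripts were tested on simulated data. Figures were drawn with matplotlib 3.10.9 in Python 3.11.15.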

Additional observations from a re-analysis of the deposited data

Results flagged for a closer look

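The log2 signal of EMPV1_40508 was 2.61 in mICSI BCB- replicate 4 and between 2.27 and 2.31 in the other mICSI BCB- blastocysts, so that the gap to the nearest of them took up 0.869 of the range of the group, above the critical value of Dixon's test for 4 samples at the 95% level. Chance alone places about 1 in 20 groups past this value. None of these signals was well above background, and before normalisation replicate 4 had the lowest processed signal of the 4, at 4.22 against 4.49 to 4.73.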

How the results depend on the processing

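The count of 2 probes at a false discovery rate of 0.05 became 1 with 75th percentile scaling, without a filter, with a floor of 10, with slide as a fixed block, with an intensity trend in the prior or by the methods' t-test, and 4 when only the 7 BCB- arrays were normalised and fitted. It was 0 in limma for probes detected on all 7 arrays (1604 with an unadjusted p under 0.05) and within slide 3 (1230 with such a p), where the lone ICSI BCB- array was assumed to vary like the others. Without ICSI BCB- replicate 3 no slide held both BCB- groups. Leaving out 1 array gave a count of 0 to 50. It was 50 without ICSI BCB- replicate 3, 0 without ICSI BCB- replicate 2 (1214 with an unadjusted p under 0.05), 5 and 4 without mICSI BCB- replicates 4 and 3, and 1 without mICSI BCB- replicate 1 or 2 or ICSI BCB+ replicate 1, 3 or 4. The 332 probes at the unadjusted threshold became 936 with spike-in scaling, 200 by the methods' t-test and 241 to 782 with 1 array left out, 782 being without ICSI BCB- replicate 3. The share of them that was higher, 41.0%, became 52.0% with 75th percentile and 1.60% with spike-in scaling, 32.7% and 33.5% when the 7 BCB- arrays were normalised and fitted or only fitted, 46.5% for probes detected on all 7 arrays, 30.1% with slide as a fixed block, 26.2% within slide 3, 33.5% by the methods' t-test and 31.5% to 49.3% with 1 array left out.

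The 7 gained and 157 lost probes became 57 and 680 when 1 exception among the mICSI BCB- arrays was allowed, 46 and 52 by rank, 15 and 89 with the flag for a positive and significant signal, 114 and 301 without mICSI BCB- replicates 2 and 4, and 15 to 41 and 203 to 423 with 1 array left out. Gained probes were most numerous without ICSI BCB- replicate 3, and lost ones without mICSI BCB- replicate 3. Probes without overlap numbered 35 higher and 3380 lower with spike-in scaling, and 552 lower when detected on all 7 arrays. The difference in detected probes kept its sign, at -7.64 to -4.19 percentage points with 1 array left out, and so did that against the spike-in RNA, at -1.28 to -0.69. The log2 ratio of pooled SD ran from -0.0696 to 0.18 with 1 array left out. It was 0.19 with the slide effect removed (two-sided exact permutation test, p = 0.286). The value of -0.0696 was without mICSI BCB- replicate 4, the only setting tried in which the ratio reversed.

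Replicate numbers did not pair the samples: the deviations of same-numbered arrays had correlations of 0.033, 0.003 and -0.083, and no array correlated best with its own number. With the replicate block, 1 probe passed the false discovery rate and 358 the unadjusted threshold. EMPV1_40508 kept an adjusted p under 0.05 in 21 of 22 settings, the exception being within slide 3, with fitted log2 fold changes from -7.48 to -3.11. It failed the filter on all 7 arrays and the filter without any 1 of the ICSI BCB- arrays, so it was not tested there. The count of settings thus does not cover the loss of an array in which EMPV1_40508 was high. EMPV1_09340 passed without ICSI BCB- replicate 3 (limma adjusted p = 0.048, range over its alternatives 0.048 to 1) and EMPV1_38133 with normexp (0.0438, range 0.0438 to 1). Fitted log2 fold changes over these alternatives were 1.23 to 2.39 for EMPV1_09340 and 0.62 to 1.92 for EMPV1_38133. Both were lowest with spike-in scaling. The gene lists were not run. Where no cause is named, the cause was not tested. Low signal limits the dim probes, many of which lie near background.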
